A study of Rattus norvegicus with 16 samples.

Results

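The 5 nuclear hormone receptor genes described here were followed by name through both count tables: Esr1 and Esr2, which encode estrogen receptors alpha and beta, Pgr for the progesterone receptor, Nr3c1 for the glucocorticoid receptor and Nr3c2 for the mineralocorticoid receptor. Of these 5 members, 4 were read in the PND21 table of 28688 entries and 5 in the PND540 table of 24218 entries; Nr3c1 was not analysed here at postnatal day (PND) 21. The data were messenger RNA counts from the ventral prostate of rat offspring, in 4 groups. GLLP offspring came from dams on a low protein diet (6% protein) during gestation and lactation, with 4 libraries at PND540 and 3 at PND21. CTR offspring came from dams on a normal diet (17% protein), with 5 libraries at PND540 and 4 at PND21. The labels give no strain or litter and do not say that replicates came from separate dams, so the p-values measure the spread between these libraries.

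Steroid receptors of this kind sit in the cytoplasm or nucleus, bind a steroid that has diffused into the cell, dimerise and act on DNA as transcription factors. In the rat prostate, estrogen receptor beta is known as the epithelial form and estrogen receptor alpha as mainly stromal. The glucocorticoid and mineralocorticoid receptors both bind corticosterone, the main glucocorticoid of rats, and the enzyme of Hsd11b2 inactivates that steroid in cells that respond to aldosterone.

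RefSeq promoter sequence (build GRCr8) was held for 4 of the 5 members, with 2 starts for Nr3c1. The 250 bases before the start are shown for the 3 sex steroid receptors, because Esr1 and Pgr were the members with few reads and an age call, and Esr2 is the other estrogen receptor. Capitals mark GGTCA, the core of the estrogen response element, AGAACA, the core shared by the corticoid and progesterone elements, and GGGCGG, the Sp1 box, each searched on both strands.
Esr1, chr1:43641845-43642094, plus strand: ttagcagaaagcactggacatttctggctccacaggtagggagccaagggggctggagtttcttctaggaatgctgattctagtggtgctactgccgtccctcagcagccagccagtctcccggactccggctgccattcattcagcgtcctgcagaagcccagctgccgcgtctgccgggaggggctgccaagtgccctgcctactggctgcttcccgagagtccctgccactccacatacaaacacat
Esr2, chr6:100644710-100644959, minus strand: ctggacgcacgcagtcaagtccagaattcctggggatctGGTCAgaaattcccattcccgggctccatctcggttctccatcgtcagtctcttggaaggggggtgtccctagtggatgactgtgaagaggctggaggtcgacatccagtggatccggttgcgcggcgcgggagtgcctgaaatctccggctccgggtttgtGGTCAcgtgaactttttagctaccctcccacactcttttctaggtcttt
Pgr, chr8:14354148-14354397, plus strand: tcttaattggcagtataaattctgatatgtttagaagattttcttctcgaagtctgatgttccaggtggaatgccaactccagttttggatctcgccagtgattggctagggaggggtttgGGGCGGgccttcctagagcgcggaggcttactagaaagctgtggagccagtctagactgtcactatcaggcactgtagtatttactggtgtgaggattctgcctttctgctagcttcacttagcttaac
The Esr2 stretch held 2 copies of GGTCA, letters found in 35.4% of all 33469 promoter windows of that length. The Pgr stretch held 1 GC box, which 30.5% of windows hold, and the Esr1 stretch held none of the 3. The 2 windows of Nr3c1, not shown, held 1 and 3 GC boxes. AGAACA, found in 17.5% of windows, was in none of the 4 members' windows. The full palindromes, GGTCA and TGACC or AGAACA and TGTTCT set 3 bases apart, were in none of them either, against 0.0239% and 0.012% of all windows. The windows of Nr3c1 had 20 and 38 CpG dinucleotides and those of Esr1, Esr2 and Pgr had 8, 14 and 5, with a median of 5 over all windows. A match of letters describes the window and was not tested as a site.

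Libraries held 28748604 to 39161666 counts. Levels are given as CPM, counts scaled to a common library size, on 1 scale for all 16 libraries, with TMM factors over the genes named in both tables. These genes held 82.5% to 92% of the counts of a library. The tables were made with different gene annotations, so every value that sets PND540 against PND21 includes any difference in gene models. The lengths of the counted transcripts were not known, and levels are therefore compared within a gene and never between genes. Libraries that stood apart numbered 3. In CTR replicate 5 at PND540, 38% of the tested genes were below and 32.5% above all 8 other libraries of that age, and 76 ribosomal protein genes summed to 118917 CPM against 35190 to 48548 CPM in those 8. In GLLP replicate 4 at PND21 these shares were 30.7% and 22.9%. CTR replicate 1 at PND21 had 0.282% mitochondrial counts, against 3.66% to 5.02% in the other PND21 libraries. Secretory, luminal and smooth muscle markers were well above 0 in every library. Secretory sums ran from 18770.1 to 111655 CPM at PND540. At PND21 they were 46208.5 to 64498.6 CPM in GLLP and 66878.1 to 83541.1 CPM in CTR. By gene, 4 of the 8 secretory markers had a positive log2 fold change for the diet at PND21, and none was called. Seminal vesicle markers, of which 2 were listed at PND21 and 5 at PND540, summed to at most 0.168 CPM. Urothelial markers summed to 50.8 CPM in GLLP replicate 4 at PND21, against 11.2 to 17.7 CPM in the others of that age. At PND540 they summed to 33.2 CPM in GLLP replicate 4, against 4.36 to 22.4 CPM in the others. Basal sums were the highest of their age in GLLP replicate 4 at PND21 (1362 CPM) and CTR replicate 5 at PND540 (1391 CPM).

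Nr3c2 differed between the ages in GLLP offspring. It had 108, 131, 89.8 and 84.9 CPM in the GLLP libraries at PND540 (replicates 1 to 4) and 61.4, 108, 88.4, 75.6 and 22.9 CPM in the CTR libraries at PND540 (replicates 1 to 5). At PND21 it had 39.7, 24.2 and 12.7 CPM in GLLP replicates 2 to 4 and 32.6, 33.9, 37 and 36.7 CPM in CTR replicates 1 to 4. Every GLLP library of PND540 was above every GLLP library of PND21, as were 22.8% of the genes tested there. In contrast, CTR replicate 5 at PND540 was below all 4 CTR libraries of PND21. Group means in descending order were 103 ± 20.7 CPM in GLLP at PND540 (SD, n = 4), 71.4 ± 32.2 CPM in CTR at PND540 (n = 5), 35.1 ± 2.12 CPM in CTR at PND21 (n = 4) and 25.6 ± 13.5 CPM in GLLP at PND21 (n = 3). Neighbours in this order overlapped in every case.

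**Figure D1:**
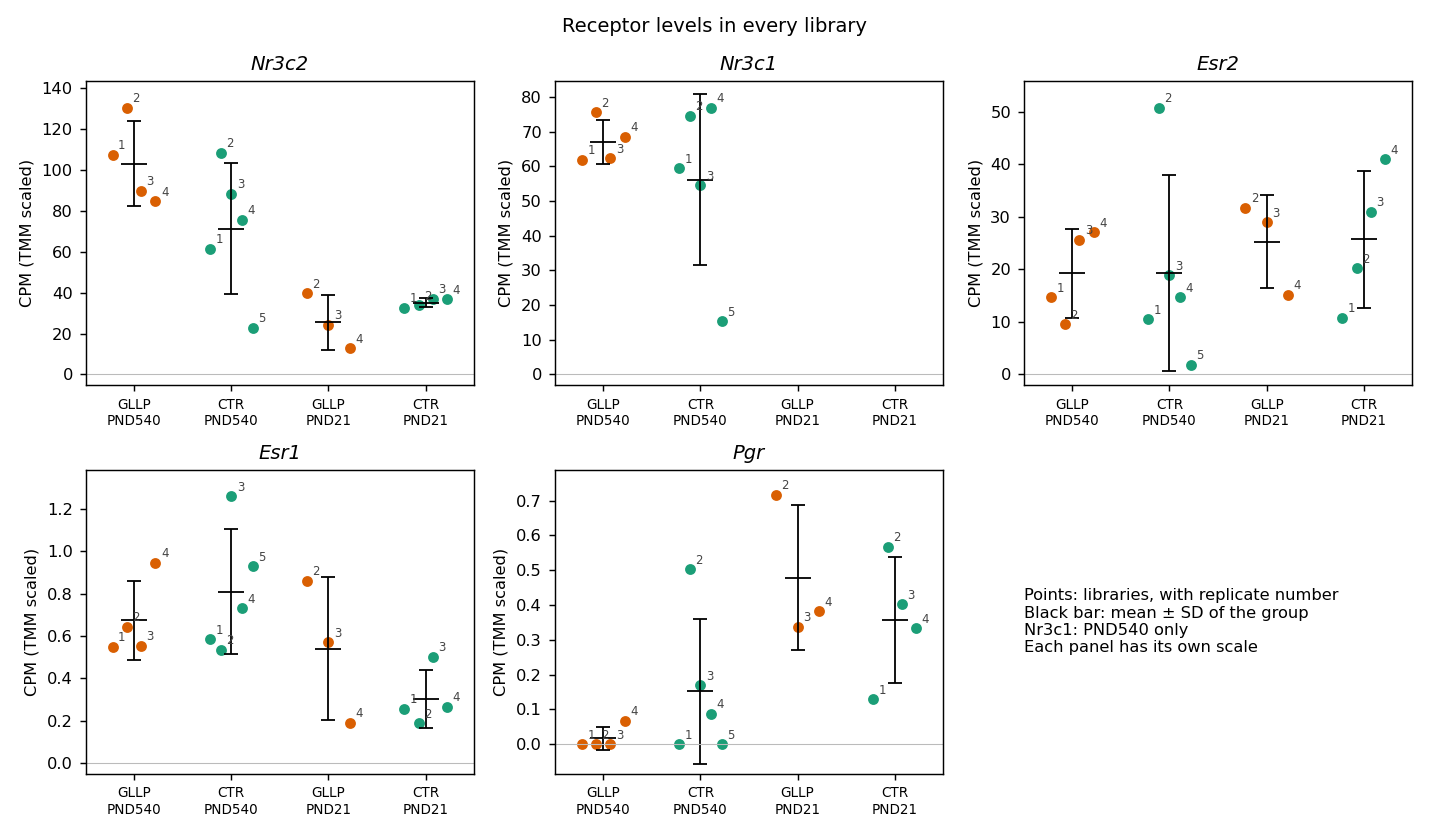
CPM of each receptor gene (vertical axis, a separate scale per panel) in every library of GLLP and CTR at PND540 and PND21; points carry the replicate number and the black bar is the mean ± SD of the group. Nr3c2 was higher at PND540 except in CTR replicate 5, Pgr was at 0 in 5 of the 9 PND540 libraries, and Esr1 and Pgr stayed near or below 1 CPM.

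In GLLP offspring, Nr3c2 rose 4.02-fold at PND540 over PND21, a log2 fold change of 2.01 (SE 0.35, edgeR adjusted p = 0.00224, quasi-likelihood test adjusted over 13694 genes). In this comparison 36.2% of all tested genes were called at an adjusted p below 0.05, beside 2 of the 4 tested members, so a call is common in this contrast. The Nr3c2 call held in all 7 fits that left out 1 library, with log2 fold changes of 1.69 to 2.48. In CTR offspring the log2 fold change of Nr3c2 was 1.03 (SE 0.37) and did not pass (edgeR adjusted p = 0.0591). There 30.5% of all genes and 1 of the 4 tested members were called. Without CTR replicate 5 of PND540 it was 1.25 and passed (edgeR adjusted p = 0.000174), and in the other 8 fits with a library left out it did not pass. The fit without CTR replicate 5 called 6575 genes in all, against 4117 with every CTR library in. Whether the age difference of Nr3c2 depended on the diet was tested by the interaction, whose log2 value of 0.99 (SE 0.54, edgeR adjusted p = 0.738) did not pass; 0.0917% of 14178 genes did. Without CTR replicate 5 of PND540 and GLLP replicate 4 of PND21 it was 0.43, a setting added after the data had been seen.

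The maternal diet gave opposite signs for Nr3c2 at the 2 ages, and neither passed. At PND540 the log2 fold change of GLLP over CTR was 0.53 (approximate 95% interval -0.17 to 1.24, edgeR adjusted p = 0.914), in a comparison where 0% of 14767 genes were called, 123 of them had an unadjusted p under 0.05 and DESeq2 called 2. Without CTR replicate 5 the value was 0.31. At PND21 it was -0.46 (interval -1.06 to 0.15, edgeR adjusted p = 0.434), where 1.11% of 14915 genes were called and 0 of the 4 tested members. GLLP replicate 2 at PND21 lay above all CTR libraries and GLLP replicates 3 and 4 below all of them. Without GLLP replicate 2 the log2 fold change was -0.92 and passed (edgeR adjusted p = 0.0406), and without GLLP replicate 4 it was -0.14. The fit without GLLP replicate 2 called 1509 genes in all, against 166 with every library in. The other 5 fits with a library left out did not pass. None of the receptors had diet groups that stayed apart in CPM at either age, beside 9.33% of genes higher and 7.78% lower in all GLLP libraries at PND21, and 0.149% and 0.251% at PND540.

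Ribosomal protein sums, which set some of these libraries apart, were put beside Nr3c2. At PND21, 71 such genes summed to 26714, 31777 and 35681 CPM in GLLP replicates 2, 3 and 4 and to 21686 to 23815 CPM in CTR. The 2 GLLP libraries with the higher sums had the lowest Nr3c2 levels of that age, and CTR replicate 5, with the highest sum at PND540, had the lowest Nr3c2 level there. Other libraries did not follow this order. GLLP replicate 2 at PND21 had a sum above all CTR libraries and the highest Nr3c2 level of that age. At PND540, GLLP replicate 2 had 43459 CPM with the highest Nr3c2 level, and GLLP replicate 4 had the lowest sum, 35190 CPM, with 84.9 CPM of Nr3c2. This family was looked at after the values had been seen, how the counting treated reads of near-identical copies is not stated, and its part in the Nr3c2 values was not tested.

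**Figure D2:**
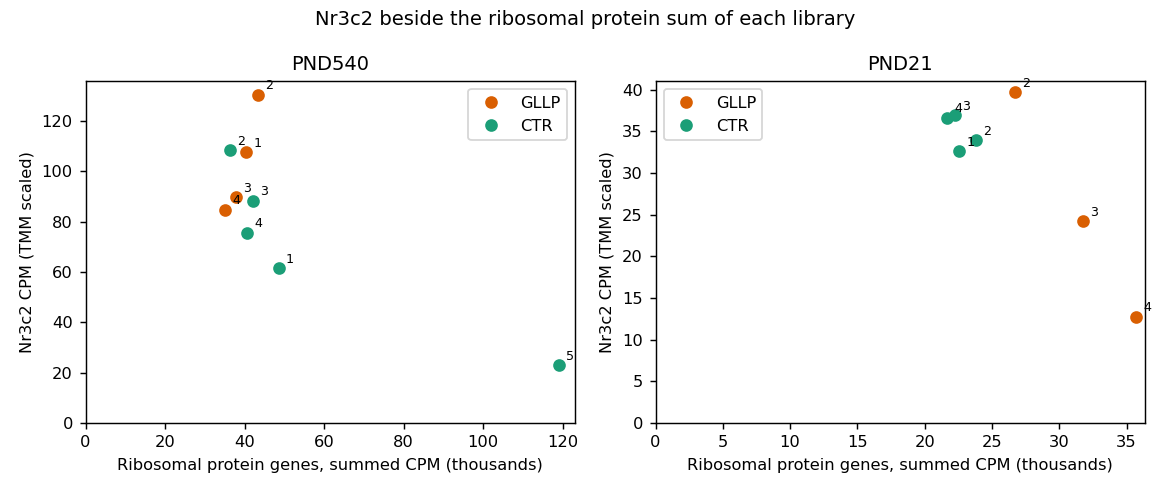
Nr3c2 CPM (vertical axis) against the summed CPM of ribosomal protein genes in units of 1000 CPM (horizontal axis), 1 point per library with its replicate number, at PND540 (left) and PND21 (right), GLLP in orange and CTR in green. CTR replicate 5 at PND540 and GLLP replicates 3 and 4 at PND21 combine a high sum with a low Nr3c2 level, and GLLP replicate 2 at each age has the highest Nr3c2 level without the lowest sum.

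The genes whose log2 CPM ran most closely with Nr3c2 over the 16 libraries, among 13467 compared, were Msl2 (Pearson r = 0.985), which encodes a subunit of a histone acetyltransferase complex, Tecpr2, an autophagy gene (0.98), and Tp53inp1, a p53-induced stress gene (0.98). Within an age the correlation with Msl2 was 0.959 over the 9 PND540 libraries and 0.989 over the 7 PND21 libraries. Without CTR replicate 5 of PND540 and GLLP replicate 4 of PND21 it was 0.976 over 14 libraries. Msl2 was at 37.4 CPM in CTR replicate 5 and at 67.3 to 90.2 CPM in the other PND540 libraries. These values describe libraries that share their age and their composition, and were not tested.

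Nr3c1, the glucocorticoid receptor gene, was nearly level among the PND540 libraries apart from 1. It had 61.8, 75.5, 62.4 and 68.6 CPM in GLLP replicates 1 to 4 and 59.5, 74.6, 54.6, 76.9 and 15.3 CPM in CTR replicates 1 to 5. The GLLP range lay inside the CTR range, and CTR replicate 5 stood far below the rest. Means were 67.1 ± 6.41 CPM in GLLP (SD, n = 4) and 56.2 ± 24.8 CPM in CTR (SD, n = 5), and the log2 fold change was 0.26 (approximate 95% interval -0.47 to 0.98, edgeR adjusted p = 0.914). Without CTR replicate 5 it was 0.02. Beside it, the number of Nr3c2 counts per Nr3c1 count was 1.74, 1.73, 1.44 and 1.24 in GLLP replicates 1 to 4 and 1.03, 1.45, 1.62, 0.984 and 1.49 in CTR replicates 1 to 5. The ratio in CTR replicate 5 lay within the range of the other CTR libraries, with both receptors at their lowest level there. The 2 diets overlapped in this ratio, which was taken as a description without a test.

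Esr2, the epithelial estrogen receptor of the rat prostate, differed more between libraries of a group than between groups. At PND540 it had 14.7, 9.53, 25.7 and 27 CPM in GLLP replicates 1 to 4 and 10.5, 50.8, 18.9, 14.7 and 1.82 CPM in CTR replicates 1 to 5. At PND21 it had 31.8, 28.9 and 15.2 CPM in GLLP replicates 2 to 4 and 10.8, 20.2, 31 and 41 CPM in CTR replicates 1 to 4. All 4 groups overlapped, with means of 19.2 ± 8.51 CPM in GLLP and 19.3 ± 18.7 CPM in CTR at PND540, and of 25.3 ± 8.89 CPM in GLLP and 25.7 ± 13.1 CPM in CTR at PND21 (SD, n = 4, 5, 3 and 4).

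No comparison called Esr2. Its log2 fold change for the diet was 0.0021 at PND540 (approximate 95% interval -1.38 to 1.38, edgeR adjusted p = 0.999) and -0.02 at PND21 (interval -0.86 to 0.82, edgeR adjusted p = 0.984). For PND540 over PND21 it was -0.40 in GLLP (interval -1.16 to 0.35) and -0.40 in CTR (interval -1.84 to 1.03), with edgeR adjusted p = 0.458 and 0.703. The intervals are wide enough to hold a 2-fold difference in either direction for the diet at PND540, and the sign of both diet values changed when single libraries were left out. The age values moved from library to library as well, over -0.66 to -0.17 in GLLP and -1.15 to -0.09 in CTR. The interaction was at 0.01 (SE 0.96, edgeR adjusted p = 1).

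Genes that varied with Esr2 over the 16 libraries included B3gnt5, a glycosyltransferase gene (Pearson r = 0.925), and Cblb, a ubiquitin ligase gene (0.917). For B3gnt5 the correlation was 0.922 over the 9 PND540 libraries, 0.951 over the 7 PND21 libraries and 0.815 over the 14 libraries left without CTR replicate 5 of PND540 and GLLP replicate 4 of PND21. B3gnt5 was at 13.7 CPM in CTR replicate 5 and at 123 to 383 CPM in the other PND540 libraries. As for Nr3c2, these values have no test.

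Esr1 was counted at a low level throughout, with 6 to 37 reads per library. It had 0.551, 0.645, 0.554 and 0.947 CPM in GLLP replicates 1 to 4 at PND540 and 0.586, 0.536, 1.26, 0.732 and 0.93 CPM in CTR replicates 1 to 5 at PND540. At PND21 it had 0.861, 0.572 and 0.191 CPM in GLLP replicates 2 to 4 and 0.257, 0.189, 0.503 and 0.266 CPM in CTR replicates 1 to 4. Every CTR library of PND540 was above every CTR library of PND21, as were 18.6% of the genes tested there, while the GLLP libraries of the 2 ages overlapped. In CTR, Esr1 rose 2.66-fold at PND540 over PND21 (log2 fold change 1.41, SE 0.43, edgeR adjusted p = 0.0304). It passed the filter on low counts there mainly through its PND540 libraries, so this direction was favoured before the test. With no filter the log2 fold change was 1.40 (edgeR adjusted p = 0.0452). Summed reads gave a ratio of 2.69 with an exact Poisson 95% interval of 1.84 to 4.01, which covers counting error only. The call was lost without CTR replicate 1, 2 or 4 of PND21 and without CTR replicate 3 of PND540 (edgeR adjusted p up to 0.102). In GLLP the log2 fold change was 0.32 (SE 0.56, edgeR adjusted p = 0.695), and the difference between the diets' age effects did not pass (interaction -1.09, SE 0.68, edgeR adjusted p = 0.738).

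For the diet, the log2 fold change of Esr1 was -0.27 at PND540 (approximate 95% interval -1.08 to 0.53, edgeR adjusted p = 0.914) and 0.82 at PND21 (interval -0.24 to 1.89, edgeR adjusted p = 0.422). The PND540 value was -0.06 without CTR replicate 3 and -0.46 without GLLP replicate 4, and the PND21 value was 0.36 without GLLP replicate 2 and 1.22 without GLLP replicate 4. At PND21, GLLP replicates 2 and 3 were above all CTR libraries and GLLP replicate 4 was within their range. Marker sums of the stroma, where this receptor is known to lie, moved with age: 8 fibroblast genes summed to 172 to 634 CPM in GLLP and 79.7 to 482 CPM in CTR at PND540, and to 5734 to 7220 CPM in GLLP and 4008 to 5928 CPM in CTR at PND21. The 8 smooth muscle genes summed to 860 to 1940 CPM in GLLP and 887 to 1897 CPM in CTR at PND540, and to 4010 to 4513 CPM in GLLP and 3815 to 4381 CPM in CTR at PND21. Such sums are weighted to the most abundant genes. By gene, the median log2 fold change with age was -0.97 in GLLP and -1.14 in CTR for fibroblast genes, with 1 gene called higher in each. For smooth muscle genes it was -1.38 in GLLP and -1.42 in CTR. All genes of both lists had counts in every library, and their part in the Esr1 values was not tested. In a whole gland, fewer cells of a type and less RNA per cell cannot be told apart.

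Pgr, a textbook target of estrogen receptor alpha in the reproductive tract, had at most 20 reads in any library. At PND540 it had 0, 0, 0 and 2 reads in GLLP replicates 1 to 4 and 0, 15, 5, 3 and 0 reads in CTR replicates 1 to 5. At PND21 it had 20, 13 and 12 reads in GLLP replicates 2 to 4 and 4, 18, 12 and 10 reads in CTR replicates 1 to 4. Every GLLP library of PND540 was below every GLLP library of PND21, as were 21.9% of the genes tested there, and the CTR libraries of the 2 ages overlapped. The summed level was 0.0179 CPM in GLLP at PND540 (exact Poisson 95% interval 0.00217 to 0.0646), against 0.46 CPM in GLLP at PND21 (0.336 to 0.616). It was 0.161 CPM in CTR at PND540 (0.102 to 0.241), against 0.359 CPM in CTR at PND21 (0.261 to 0.481).

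In GLLP, Pgr was called lower at PND540 (edgeR adjusted p = 0.00594), in all 7 fits that left out a library as well. It passed the filter on low counts there only through its PND21 libraries, so this direction was favoured before the test. The fits with a library left out share that limit. With no filter the log2 value was -4.47 (edgeR adjusted p = 0.00881). The ratio of the summed levels, GLLP at PND540 over GLLP at PND21, was 0.0389 with a counting interval of 0.00457 to 0.149. In CTR the corresponding ratio was 0.448 (0.258 to 0.759), and with the spread between libraries the difference did not pass (log2 fold change -1.17, SE 0.91, edgeR adjusted p = 0.359). The interaction of age and diet did not pass for Pgr either (log2 value -3.28, SE 1.53, unadjusted p = 0.0487 and adjusted p = 0.738 in edgeR). At PND540 Pgr was left out of the diet comparison by the filter on low counts; with no filter its log2 value was -2.85 (edgeR adjusted p = 0.908). At PND21 the diet gave 0.40 (approximate 95% interval -0.60 to 1.40, edgeR adjusted p = 0.69), with 0.00886 without GLLP replicate 2 and 0.73 without CTR replicate 2.

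**Figure D3:**
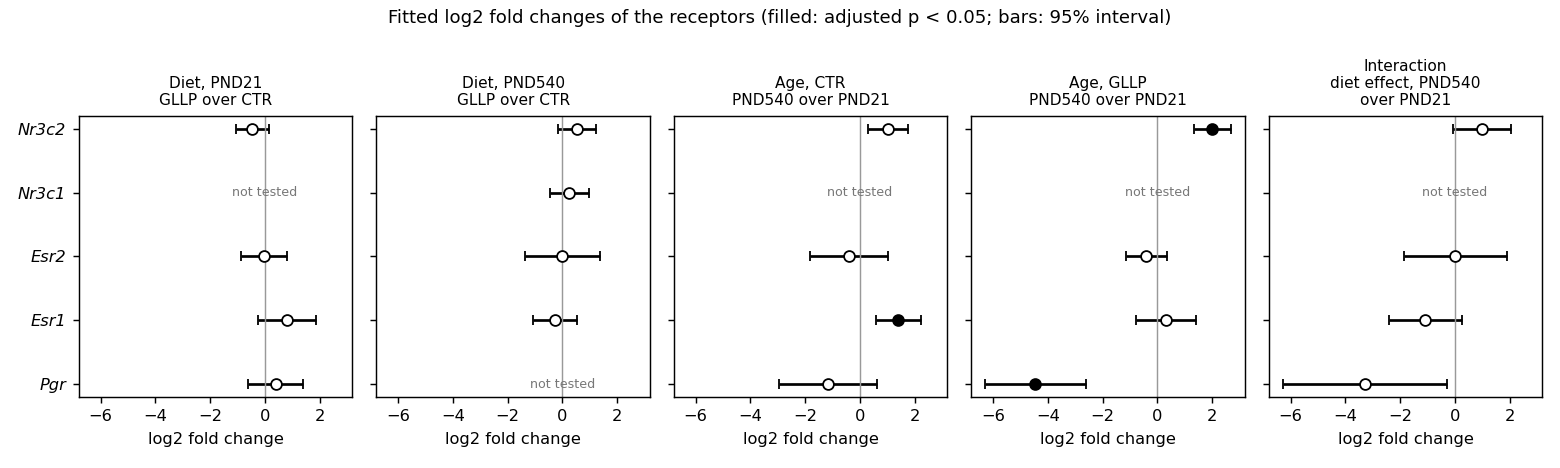
Fitted log2 fold change of each receptor gene (horizontal axis) with its approximate 95% interval for the 2 diet comparisons (GLLP over CTR), the 2 age comparisons (PND540 over PND21) and their interaction; filled points passed an edgeR adjusted p of 0.05. The filled points are 3: Nr3c2 and Pgr for age in GLLP and Esr1 for age in CTR.

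The genes around the receptors were taken as 8 lists: receptor chaperones, coregulators, glucocorticoid, mineralocorticoid, estrogen and progesterone response genes, genes of ligand supply, and relatives of the receptors. At PND21, 2 of their members were called between the diets, both higher in GLLP. They were 1 of 14 tested mineralocorticoid response genes and 1 of 13 tested ligand supply genes, with none in the other lists. Of all genes, 1.01% were called higher and 0.107% lower. Hsd11b2, whose enzyme inactivates corticosterone, had 3.59, 2.44 and 3.38 CPM in GLLP replicates 2 to 4 and 1.61, 1.39, 1.21 and 1.2 CPM in CTR replicates 1 to 4. Every GLLP library was above every CTR library, as for 9.33% of the genes tested there. Hsd11b2 rose 2.32-fold (log2 fold change 1.21, SE 0.23, edgeR adjusted p = 0.0437). The call held in 1 of 7 fits with a library left out, the one without GLLP replicate 2, which called 1509 genes in all. The adjusted p over the 7 fits was 0.0326 to 0.134 in edgeR, with log2 fold changes of 1.11 to 1.37. Ndrg2, a mineralocorticoid-induced gene of the kidney that is also abundant in muscle, rose to 78.4 ± 9.07 CPM in GLLP (SD, n = 3), against 45 ± 3.58 CPM in CTR (SD, n = 4; log2 fold change 0.80, SE 0.11, edgeR adjusted p = 0.00944). Its call was lost without GLLP replicate 3 (edgeR adjusted p = 0.066). Skeletal muscle markers, of which 9 of 10 tested were called higher (median log2 fold change 5.46), summed to 1066 to 1244 CPM in these GLLP libraries and to 376 to 465 CPM in these CTR libraries, with up to 1 gene at 0 in a CTR library. Their part in the Ndrg2 value was not tested.

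The other list genes did not pass at PND21 with all libraries in the fit. Without GLLP replicate 2, Nrip1 (-0.88, edgeR adjusted p = 0.00581), Wnt4 (1.15, adjusted p = 0.0067) and Pgrmc1 (-0.57, adjusted p = 0.029) did, as did Gadd45g without CTR replicate 1 (-0.94, adjusted p = 0.0144). The fit without GLLP replicate 2 called 1509 genes in all, against 166 with every library in, and the fit without CTR replicate 1 called 62. Without GLLP replicate 4 the log2 fold changes were -0.37 for Nrip1, 0.73 for Wnt4 and -0.36 for Pgrmc1. With every library in the fit, all 18 glucocorticoid response genes were tested and 12 were positive, at a median log2 fold change of 0.17 beside -0.0038 over all genes. The one with the smallest p was Gadd45g (261 ± 22.2 CPM in GLLP and 454 ± 109 CPM in CTR, edgeR adjusted p = 0.0877). Of 16 coregulator genes tested of 18, 3 had positive values (median -0.17), and Nrip1, a corepressor induced by estrogen, had -0.57 (edgeR adjusted p = 0.177). GLLP replicate 4 was the lowest library of that age for Ncoa2, Ncoa3, Med1, Ncor1 and Nrip1, and not for Smarca4 or Prmt1. It had 7.32 CPM of Ncoa2, against 18.7 to 29.2 CPM in the others. The part of that library in the coregulator median was not tested. Of 15 chaperone genes tested of 16, 4 were positive (median -0.09), led by Hspa4 at -0.26 (edgeR adjusted p = 0.244). The estrogen list had 10 of 17 tested positive (median 0.06, 20 in the list), the mineralocorticoid list 7 of 14 (median -0.01, 16 in the list) and ligand supply 6 of 13 (median -0.0049, 21 in the list). Among progesterone response genes, 3 of 10 were tested (median 0.33), and Wnt4, a progesterone-induced ligand, had 19.4 ± 5.64 CPM in GLLP and 10.1 ± 1.04 CPM in CTR (edgeR adjusted p = 0.0657). Pgrmc1, a membrane protein associated with progesterone signalling, had a log2 fold change of -0.45 (edgeR adjusted p = 0.13); 5 of 6 relatives were tested (median -0.08).

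At PND540 none of the list genes was called between the diets. Coregulators had 16 of 18 positive values with a median of 0.32, beside -0.0003 over all genes, and Ncor1, a corepressor, had 0.47 (edgeR adjusted p = 0.914). CTR replicate 5 had 28.2 CPM of Ncor1 and the other PND540 libraries 110 to 191 CPM, and without it the value was 0.23. That library was the lowest of the 9 for the coactivator genes Ncoa2, Ncoa3 and Med1 too, and its part in the coregulator median was not tested. The medians were 0.02 for chaperones (16 tested), -0.10 for glucocorticoid (18), -0.11 for mineralocorticoid (14), -0.10 for estrogen (17) and -0.27 for progesterone response genes (6), and 0.04 for ligand supply (11) and 0.06 for relatives (5). The genes with the smallest p were Cdc37 (-0.59), Cebpd (-1.14), Atp1b1 (0.78), Cxcl12 (0.31), Fst (0.92), Sts (-0.56) and Pgrmc2 (0.16), with log2 fold changes in parentheses and an edgeR adjusted p of 0.914 for each. Most of these values rested on single libraries. Without CTR replicate 5, Cdc37 was at -0.03, Cebpd at -0.73 and Sts at -0.20. Without GLLP replicate 3, Atp1b1 was at 0.41 and Pgrmc2 at 0.05. Fst was at 0.00699 without GLLP replicate 2, which had 103 CPM of it, and Cxcl12 at 0.18 without GLLP replicate 4. In the interaction no list gene passed; the smallest p were those of Pgrmc1, Ptges3, Prmt1, Mt2A, Ndrg2, Nrip1, Wnt4 and Cyp7b1 (edgeR adjusted p = 0.738), with Wnt4 at -1.50 (SE 0.44) and Mt2A at -1.60 (SE 0.56).

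**Figure D4:**
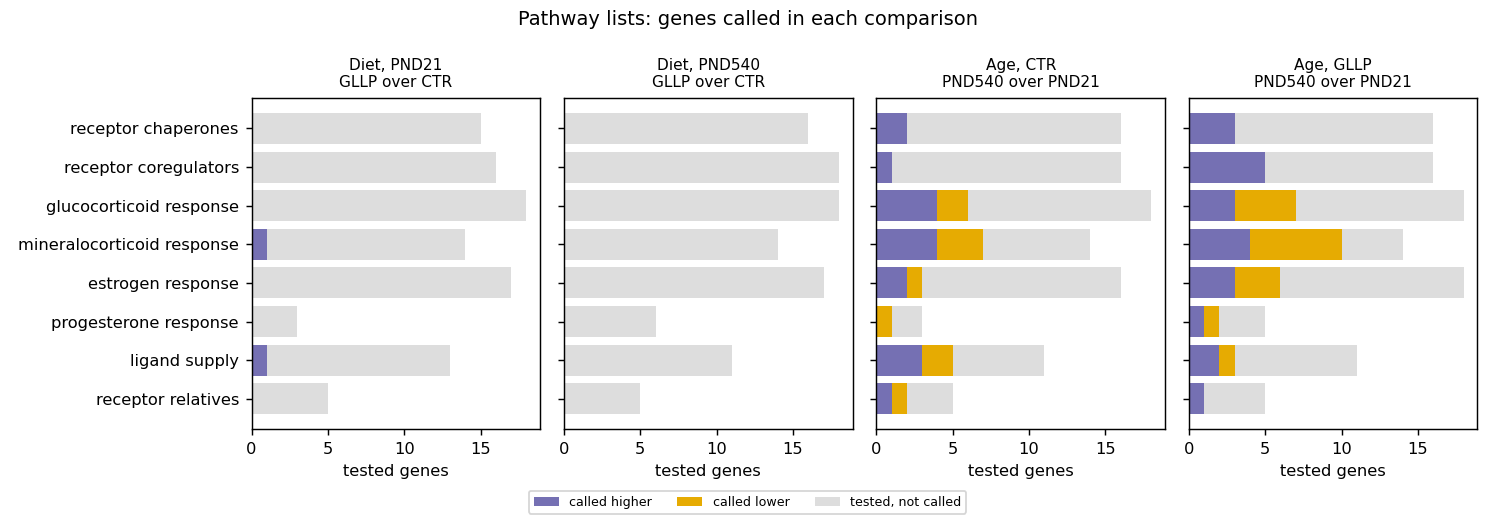
Number of tested genes (horizontal axis) of each pathway list that were called higher, called lower or not called, for the diet comparisons at PND21 and PND540 and the age comparisons in CTR and GLLP. The diet calls are 1 mineralocorticoid response gene and 1 ligand supply gene at PND21, and the age calls run in both directions in most lists.

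Between the ages, genes of sodium transport, the classical mineralocorticoid program, went in both directions. In GLLP, 4 of 14 tested genes of that list were higher and 6 lower at PND540, against 19.1% and 17.1% of all genes, and in CTR 4 were higher and 3 lower, against 17.3% and 13.2%. The medians were -0.20 in GLLP and -0.09 in CTR, beside 0.02 and 0.07 over all genes. Scnn1a, the alpha subunit of the epithelial sodium channel, stood at 678 ± 173 CPM in GLLP at PND540 and 153 ± 13.3 CPM in GLLP at PND21, and rose 4.38-fold (log2 fold change 2.13, edgeR adjusted p = 0.000156). In CTR it rose 3.28-fold, with 526 ± 105 CPM at PND540 and 161 ± 60.8 CPM at PND21. Scnn1g, the gamma subunit, went the other way. It was 6.45-fold lower in GLLP (11.8 ± 4.42 CPM at PND540 and 75.2 ± 30.4 CPM at PND21) and 10.2-fold lower in CTR (10.1 ± 3.28 CPM at PND540 and 103 ± 16.4 CPM at PND21). Fxyd3, a regulator of the sodium pump, was 7.12-fold lower in GLLP (log2 fold change -2.83, and -2.01 without GLLP replicate 4 of PND21) and 4.45-fold lower in CTR. Sgk1, a kinase induced by both corticoids, was 2.22-fold lower in GLLP, and Wnk4, a kinase of salt transport, rose 4.11-fold in CTR.

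Glucocorticoid response genes had 3 of 18 higher and 4 lower at PND540 in GLLP (median 0.0079), and 4 higher and 2 lower in CTR (median 0.18). The shares over all genes were 19.1% and 17.1% in GLLP and 17.3% and 13.2% in CTR, so the counts of the list lie near them. Zbtb16, a transcription factor induced by glucocorticoids, rose 7.08-fold in GLLP (390 ± 10.6 CPM at PND540 and 54.8 ± 25.2 CPM at PND21, edgeR adjusted p = 0.000178) and 5.35-fold in CTR. The leucine zipper gene Tsc22d3 was 2.81-fold lower and the transcription factor Cebpb 5.53-fold higher in CTR. Ddit4, an inhibitor of mTOR signalling, was 2.65-fold lower in GLLP and 2.69-fold lower in CTR. Lcn2, a secreted lipocalin, was 2.73-fold lower in GLLP.

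Genes that supply or remove the ligands showed 2 calls higher and 1 lower of 11 tested in GLLP (median -0.43), and 3 and 2 of 11 in CTR (median -0.28), beside the same shares over all genes and all-gene medians of 0.02 in GLLP and 0.07 in CTR. H6pd, which provides the cofactor for corticosterone production by the enzyme of Hsd11b1, rose 3.49-fold in GLLP (116 ± 18.1 CPM at PND540 and 33 ± 3 CPM at PND21, edgeR adjusted p = 6.66e-05) and 3.16-fold in CTR. Steroid sulfatase (Sts) rose 2.08-fold in GLLP, a call lost without GLLP replicate 2 or 3 of PND21, and 3.01-fold in CTR. Shbg, a sex steroid carrier, rose 2.38-fold in CTR, a call that held in 2 of 9 fits with a library left out, with a log2 fold change of 1.25 that was 0.74 without CTR replicate 5 of PND540. Cyp11a1, the first enzyme of steroid synthesis, had 0 to 10 reads per CTR library at PND540 and 18 to 35 at PND21 and was called lower (edgeR adjusted p = 0.0247); the call was lost without CTR replicate 1, 2 or 3 of PND21, and its log2 value of -2.26 was -2.87 without CTR replicate 5 of PND540. Cyp17a1 was listed at 0 in all 4 GLLP libraries of PND540 and had 12, 23 and 42 reads in those of PND21. In CTR it had 0, 0, 2, 0 and 0 reads at PND540 (replicates 1 to 5). At PND21 it had 4, 8, 4 and 46 reads in CTR replicates 1 to 4.

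**Figure D5:**
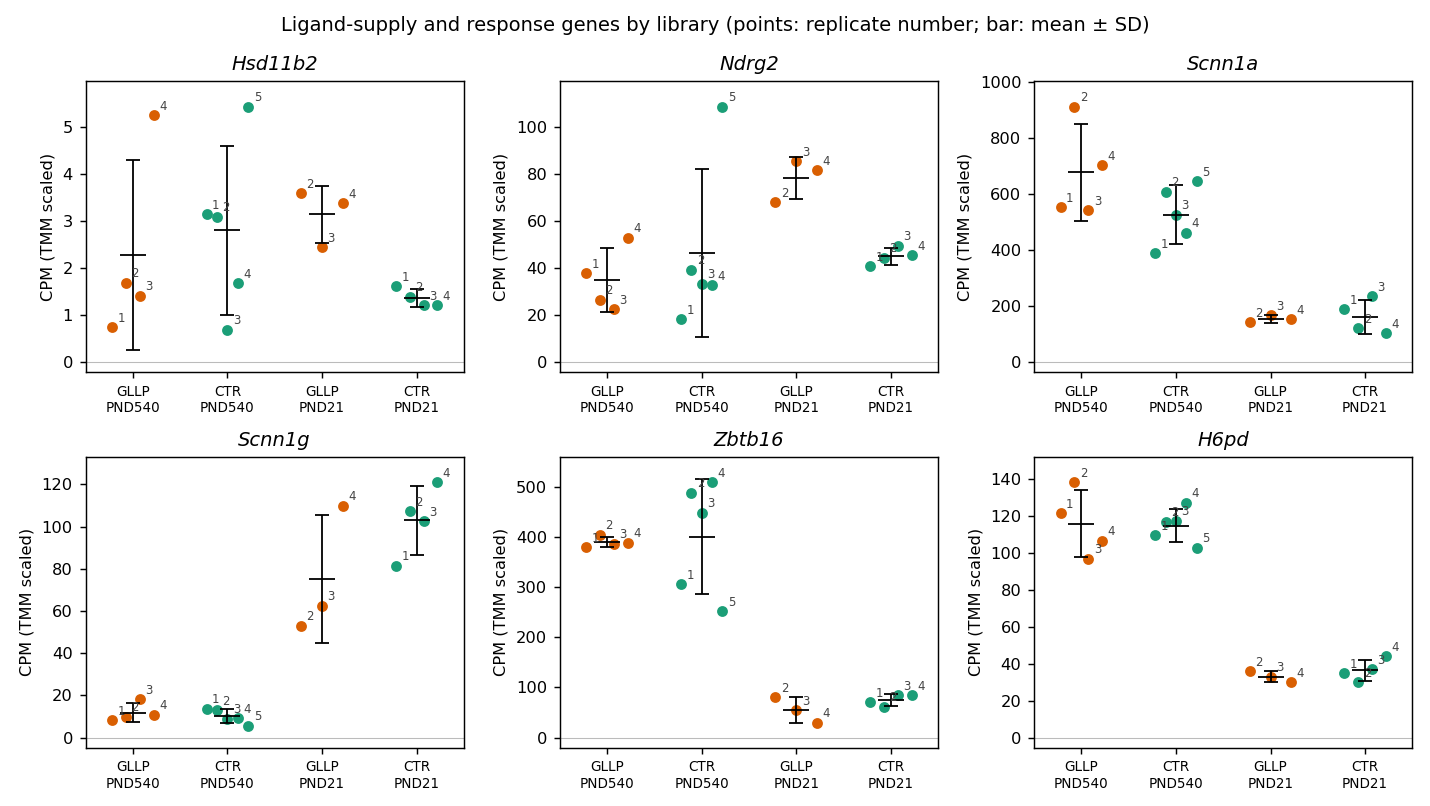
CPM (vertical axis, a separate scale per panel) of 6 genes of ligand supply and corticoid response in every library of GLLP and CTR at PND540 and PND21; points carry the replicate number and the black bar is the mean ± SD. Hsd11b2 and Ndrg2 separate the diets at PND21, and Scnn1a, Scnn1g, Zbtb16 and H6pd separate the ages. Of all tested genes, 9.33% were higher in every GLLP library at PND21. The ages were apart, in either direction, for 44.7% in GLLP and 37.7% in CTR.

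Estrogen response genes had 3 calls higher and 3 lower of 18 tested in GLLP (median -0.18) and 2 higher and 1 lower of 16 in CTR (median -0.17). The shares over all genes were 19.1% and 17.1% in GLLP and 17.3% and 13.2% in CTR, and with so few genes the counts of the list lie near them. Xbp1, a transcription factor of secretory cells, rose 2.05-fold in GLLP and 1.94-fold in CTR. Krt19, a simple epithelial keratin, rose 4.64-fold in GLLP and 10.1-fold in CTR. The cyclin gene Ccnd1 was 3.48-fold lower in GLLP and 2.47-fold lower in CTR. Tff3, a mucosal trefoil peptide, had 0, 0, 2 and 0 reads in GLLP replicates 1 to 4 at PND540 and 12, 34 and 13 in GLLP replicates 2 to 4 at PND21. In CTR it had 0, 4, 2, 0 and 8 reads at PND540 and 16, 10, 8 and 22 reads at PND21. Of the progesterone list, Wnt4 was 5.66-fold lower in GLLP and 1.98-fold lower in CTR, with the CTR call lost without CTR replicate 3 or 4 of PND21; Areg, a growth factor gene, had 0.738 ± 0.551 CPM at PND540 and 0.172 ± 0.0408 CPM at PND21 in GLLP, a call that held in 1 of 4 such fits. In GLLP 5 progesterone list genes were tested, and 3 in CTR.

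Coregulators had 5 of 16 tested genes higher and none lower in GLLP (median 0.28), and 1 higher and none lower in CTR (median -0.15), beside 19.1% of all genes higher in GLLP and 17.3% in CTR. In CTR replicate 5 at PND540, Ncoa2 was at 1.98, Ncoa3 at 18.1 and Med1 at 22.8 CPM. The other CTR libraries of PND540 had 34.7 to 66.5 CPM of Ncoa2, all above the CTR libraries of PND21 (22 to 29.2 CPM). In GLLP the coactivator gene Ncoa2 rose 3.21-fold (57.8 ± 16.6 CPM at PND540 and 17.9 ± 10.2 CPM at PND21), the mediator subunit Med1 2.05-fold, Ncoa3 1.76-fold and the chromatin remodeller Smarca4 1.5-fold. The last 2 lost their call without GLLP replicate 3 of PND21. In CTR the call was Prmt1, an arginine methyltransferase (1.59-fold higher, held in 4 of 9 fits with a library left out). Chaperones had 3 of 16 higher in GLLP (median 0.34) and 2 of 16 in CTR (median 0.32), and none lower. Beside them, 19.1% of all genes were higher and 17.1% lower in GLLP, and 17.3% and 13.2% in CTR. Both chaperone counts include Hsp90aa1. St13 rose 1.82-fold and Ptges3, the p23 cochaperone, 1.51-fold in GLLP, and Hsp90ab1 1.99-fold in CTR. The call of Hsp90aa1 is left without a fold, because this chaperone was listed at 0 or 1 read in every PND21 library and at 59 to 355 reads in the PND540 libraries. For this gene, age and a difference in gene models cannot be told apart. Among 5 relatives tested, Pgrmc2 rose 1.34-fold in GLLP (held in 1 of 7 fits) and Esrrg, an orphan receptor, 3.76-fold in CTR. Gper1, the membrane estrogen receptor, was 2.09-fold lower in CTR, a call that held in 2 of 9 fits. It had 6, 5, 6, 14 and 8 reads in CTR replicates 1 to 5 at PND540. At PND21 it had 18, 18, 14 and 20 reads in CTR replicates 1 to 4. Gper1 passed the filter on low counts there mainly through its PND21 libraries, so this direction was favoured before the test.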

How the data were processed

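What the authors deposited are whole-number read counts, in a table for each age, without normalization. Per the submitters' processing notes, STAR, edgeR 3.34.0 and the build Rnor_6.0 were used; what each did, which program counted, and with which annotation and strand setting, is not given in the labels. A column was tied to its library by its name.

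The analysis used edgeR 4.0.16 (R 4.3.3): genes were kept by filterByExpr, scaled by TMM and tested by robust quasi-likelihood, with Benjamini-Hochberg adjustment over all genes tested and a threshold of 0.05. Diet effects were fitted within an age, with 9 libraries at PND540 and 7 at PND21. Age effects and the interaction used gene names held once in both tables. In the age fits, some genes passed the filter only through the age where they were high. These were Pgr, Cyp17a1 and Tff3 in GLLP and Cyp11a1 in CTR at PND21, and Areg in GLLP and Hsp90aa1 at PND540. Esr1 in CTR passed mainly through PND540, and Gper1 in CTR mainly through PND21. The standard error is the log2 fold change divided by the square root of its F value, and intervals rest on it. Replicates differed far beyond sampling noise (chi-square per degree of freedom of at least 30.3), so none was counted as a repeat of another. The fits were tested on simulated data.

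The members, lists and tests were chosen with earlier results of these data known. The rule named all 5 members and, per list and comparison, up to 4 called genes with the smallest p, or else the 1 with the smallest p. It also named the 3 genes with the highest Pearson r to each member above 1 CPM. One gene this rule named is not reported here. Cell type markers formed 13 further lists. Levels per kilobase had been planned and were not computed, since the tables used here hold gene spans and no transcript lengths. Alternatives were size factors by RLE or by library size, DESeq2 1.42.0, filters set to none or to 1 CPM, a fit that was not robust, a joint fit, library sizes from the whole table, a replicate block and each library left out. Figures were drawn with matplotlib 3.10.9.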

Additional observations from a re-analysis of the deposited data

Results flagged for a closer look

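In the 4 GLLP libraries of PND540, Pgr was at 0 CPM in 3 and at 0.0677 CPM in replicate 4, which a gap test (Dixon) flagged. With the other 3 tied at 0, the test flags any count above 0, so no conclusion is drawn from it. That value stands for 2 reads. Of 14 combinations of a receptor and a group of 4 or 5 libraries examined this way it was the only one flagged. The chance rate of such a test, about 1 in 20 groups, does not hold for tied counts.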

How the results depend on the processing

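The 5 counts of called receptors kept their value, or came within 1.5 times of it, in all but the following cases. For age in CTR, the count was 1, and it was 2 with DESeq2, 0 with a filter at 1 CPM, which removes Esr1, 2 with the replicate block and 0 to 2 with single libraries left out. For age in GLLP it was 2, and 1 with a filter at 1 CPM, which removes Pgr. For the diet at PND21 it was 0, and 0 to 1 with single libraries left out. Esr2 changed sign where its value was near 0. For the diet at PND21 it was 0.11 with library size alone and -0.27 to 0.30 with single libraries left out. For the diet at PND540 it was -0.00154 with RLE factors, -0.0199 with library size alone, -0.00109 with DESeq2, -0.0601 with the replicate block, -0.0106 in the joint fit and -0.29 to 0.75 with single libraries left out. For the interaction it was -0.000558 with RLE factors, -0.11 with library size alone, -0.0718 with the replicate block, -0.31 to 0.76 with single libraries left out and -0.55 without CTR replicate 5 of PND540 and GLLP replicate 4 of PND21, a setting chosen after seeing the data. Esr1 for age in GLLP was -0.0793 to 0.80 with single libraries left out. The cause was not tested.

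Same-numbered libraries did not pair: over 14 pairs their deviations correlated at -0.17 to 0.30, and 3 correlated best with their own number. With the replicate block Nr3c2 was called for age in CTR (log2 fold change 1.22, edgeR adjusted p = 0.000624), in a fit that called 5990 genes in all. Hsd11b2 and Ndrg2 at PND21 lost their calls under the replicate block (edgeR adjusted p = 0.253 and 0.146) and in the joint fit (adjusted p = 1 for both). Over all genes, the diet calls at PND21 numbered 166, against 650 with library size alone, 972 with DESeq2, 31 with the replicate block, 40 in the joint fit and 62 to 1509 with single libraries left out (lowest without CTR replicate 1 or GLLP replicate 3, highest without GLLP replicate 2). The age calls in CTR numbered 4117, against 6575 without CTR replicate 5, and the interaction calls 13, against 46 with DESeq2 and 7 to 16 with single libraries left out. With library size alone the all-gene median went to 0.14 for the diet at PND21 (TMM -0.0038), to -0.16 for age in GLLP (TMM 0.02) and to -0.05 for age in CTR (TMM 0.07). With 0 to 37 reads, depth limits every statement on Esr1 and Pgr.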

Other observations

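The 13 marker lists of prostate and other cell types were counted in the same fits. For the diet, the calls in them were 9 of 10 tested skeletal muscle genes, higher in GLLP at PND21 beside 1.01% of all genes, and no other list gene was called at PND21 or PND540. Skeletal muscle genes then fell with age in GLLP, 10 of 10 tested (median log2 fold change -5.77), and in CTR 1 was higher and 2 were lower of 8 (median -0.64). The interaction called 6 of these 10 lower, beside 0.0917% of all genes, the only marker genes it called.

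Between the ages, 19.1% of all genes were called higher and 17.1% lower in GLLP, and 17.3% higher and 13.2% lower in CTR, shares that several of the following counts lie near. Smooth muscle genes had 6 of 8 lower in GLLP and 6 of 8 lower in CTR, with medians of -1.38 and -1.42. Fibroblast genes had 1 higher and 5 lower of 8 in GLLP and 1 higher and 3 lower of 8 in CTR, and endothelial genes 4 of 6 lower in GLLP and 3 of 6 lower in CTR. Luminal genes had 3 of 8 higher in each diet. Secretory genes had 2 higher and 1 lower of 7 in GLLP and 1 higher and 1 lower of 7 in CTR. Lymphocyte genes had 2 of 5 higher in GLLP and 5 of 6 in CTR, myeloid genes 2 of 7 in GLLP and 3 of 7 in CTR, and adipocyte genes 4 of 7 in GLLP and 1 of 7 in CTR. Basal genes had 2 of 5 lower in GLLP and 1 of 5 higher in CTR. Nerve genes had 1 higher and 3 lower of 7 in GLLP and 2 of 7 lower in CTR, and urothelial genes 0 of 5 in GLLP and 3 of 4 higher in CTR. None of the seminal vesicle genes passed the filter.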
